A study of Mus musculus with 6 samples.

Results

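The genes that write and maintain DNA methylation were examined in AtT-20 cells, an established mouse line grown from an ACTH-producing pituitary tumour, after siRNA against one of them, Dnmt1. The set holds 9 genes, namely Dnmt1, Dnmt3a, Dnmt3b, Dnmt3l, Uhrf1, Uhrf2, Hells, Cdca7 and Trdmt1. All probe sets that the platform annotation maps to one of these symbols alone were taken, which gave 9 of 18193 genes with such a probe set and 22 of the 45037 probe sets on the array that are not controls, and 0 further probe sets joined a member to another symbol. Of these, 16 were bright enough to be tested among 27022 in all. They stood for 8 of the 9 genes, since the only Dnmt3l probe set was too dim. The siDNMT1 group, 3 arrays, had received 20 nM siRNA directed at Dnmt1 repeatedly for 8 days. The siNT group, also 3 arrays, had received a non-targeting siRNA at the same dose and for the same time. Each of 3 independent repeats gave 1 array of either group. The p-values and intervals of the moderated linear models (limma) rest on these repeats and on variance borrowed from all tested probe sets. Both groups were transfected, untransfected cells were not analysed here, and all RNA came from the same tumour line.

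DNA methylation in mammals sits mostly on cytosines of CpG dinucleotides. When DNA is copied the new strand starts unmethylated. Uhrf1 recognises such hemimethylated sites and brings in Dnmt1, which copies the mark, while the remodeller Hells and its partner Cdca7 open nucleosomal DNA for this step. Dnmt3a and Dnmt3b set new marks, aided in germ cells by Dnmt3l, which has no catalytic activity of its own. Trdmt1 has the sequence of a DNA methyltransferase but methylates transfer RNA. Loss of Dnmt1 in dividing cells is known to lead to passive loss of methylation.

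CpG, the dinucleotide that Dnmt1, Dnmt3a and Dnmt3b act on, is unevenly spread at the starts of the 9 genes. RefSeq (GRCm38.p6) promoter sequences were found for 9 of the 9 genes, with 16 annotated starts in all, and the 250 bases before each start were used. Taking for each gene the start with most CpG, 7 of the 9 genes lay at or above the upper quartile of all 27025 genes, which was 17 CpG, against a median of 6. These 7 had 21 to 40 CpG, Trdmt1 had 9 and Dnmt3l had 5. Dnmt1 is among the 7 through 1 of its 3 starts only, whose stretch lies downstream of both others. The stretches shown are those of 2 of the 3 annotated Dnmt1 starts, the gene that fell, and of the Dnmt3l start with most CpG, the gene that stayed too dim to test. They are written 5′ to 3′ on the gene's strand, with each CpG in capitals.
Dnmt1, upstream start, chr9:20959889-20960138, minus strand: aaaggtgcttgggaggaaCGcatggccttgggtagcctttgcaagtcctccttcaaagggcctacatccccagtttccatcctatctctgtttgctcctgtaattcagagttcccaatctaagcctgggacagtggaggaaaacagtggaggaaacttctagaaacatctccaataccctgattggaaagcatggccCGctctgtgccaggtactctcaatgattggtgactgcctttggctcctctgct
Dnmt1, middle start, chr9:20952980-20953229, minus strand: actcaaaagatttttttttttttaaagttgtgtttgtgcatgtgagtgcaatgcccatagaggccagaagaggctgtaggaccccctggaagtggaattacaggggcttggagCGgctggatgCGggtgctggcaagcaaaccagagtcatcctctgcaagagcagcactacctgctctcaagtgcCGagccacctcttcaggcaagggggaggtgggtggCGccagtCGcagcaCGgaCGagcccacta
Dnmt3l, chr10:78042037-78042286, plus strand: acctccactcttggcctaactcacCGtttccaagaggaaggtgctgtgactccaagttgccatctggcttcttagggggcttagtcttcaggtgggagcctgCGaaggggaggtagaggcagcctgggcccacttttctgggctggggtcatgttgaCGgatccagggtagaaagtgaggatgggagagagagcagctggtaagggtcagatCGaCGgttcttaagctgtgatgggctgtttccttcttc
The upstream Dnmt1 stretch holds 2 CpG and the middle one 7, and the third Dnmt1 start, not shown, has 26 in the same length. Methylation at these sites was not measured, and the array signals of Dnmt1 were not assigned to a start.

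The arrays were scaled to a common median before any comparison, because deposited medians ran from 19.8 to 36.3. Both arrays of repeat 2 were the bright ones. Markers of the corticotroph line were present in both groups. Pomc, the hormone precursor, had scaled signals of 5575 to 10471 in siDNMT1 cells and 6958 to 10537 in siNT cells, and Tbx19, the corticotroph lineage factor, 1437 to 1670 in siDNMT1 cells and 1375 to 1625 in siNT cells. Neurod1, Pcsk1, Crhr1 and Pitx1 were also above the limit for testing. Summed over the markers on the array, other pituitary cells gave 123 to 201 in siDNMT1 and 134 to 234 in siNT cells, fibroblasts 135 to 153 in siDNMT1 and 123 to 148 in siNT cells, leukocytes 91.4 to 169 in siDNMT1 and 101 to 153 in siNT cells, and endothelium 83.2 to 102 in siDNMT1 and 53.6 to 90.2 in siNT cells. Their part in the results was not tested. Fshb, Col3a1, Ptprc, Tyrobp and Pecam1 of these lists stayed under the limit for testing. The other markers on the array passed it, 5 of 6 for other pituitary cells, 4 of 5 for fibroblasts, 2 of 4 for leukocytes and 2 of 3 for endothelium. Passing this limit therefore does not by itself show that a gene is expressed.

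Dnmt1 transcript fell in siDNMT1 cells, a call made by the fit that pairs the arrays of a repeat and not by the fit of the group alone. Every siDNMT1 value was less than the lowest siNT value on each of its 3 probe sets. On the brightest, 1422946_a_at, scaled signals were 214, 142 and 301 in siDNMT1 repeats 1 to 3, against 541, 701 and 619 in siNT repeats 1 to 3. On 1435122_x_at they were 154, 96.8 and 232 in siDNMT1 cells, against 553, 563 and 520 in siNT cells. On 1447877_x_at they were 80.2, 54.8 and 120 in siDNMT1 cells, against 291, 309 and 260 in siNT cells. The siDNMT1 arrays kept the same order on all 3 probe sets, lowest in repeat 2 and highest in repeat 3, and the groups did not overlap on any of them. Among all tested probe sets 5.78% had non-overlapping groups with siDNMT1 lower.

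The amount of Dnmt1 signal left differed among the repeats. The signal left in siDNMT1 cells was 39.6%, 20.2% and 48.6% of the paired siNT array in repeats 1, 2 and 3 on the brightest probe set. It was 27.8%, 17.2% and 44.6% on 1435122_x_at and 27.6%, 17.7% and 46.2% on 1447877_x_at. The means were 36.1% ± 14.5, 29.8% ± 13.8 and 30.5% ± 14.5 (SD, n = 3 repeats each). Repeat 3 thus kept the most Dnmt1 and repeat 2 the least, whichever probe set was read. A probe set whose name ends in _x_at may also bind related sequences. The arrays average over the culture, so fewer cells with Dnmt1 transcript and less transcript per cell cannot be told apart.

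**Figure D1:**
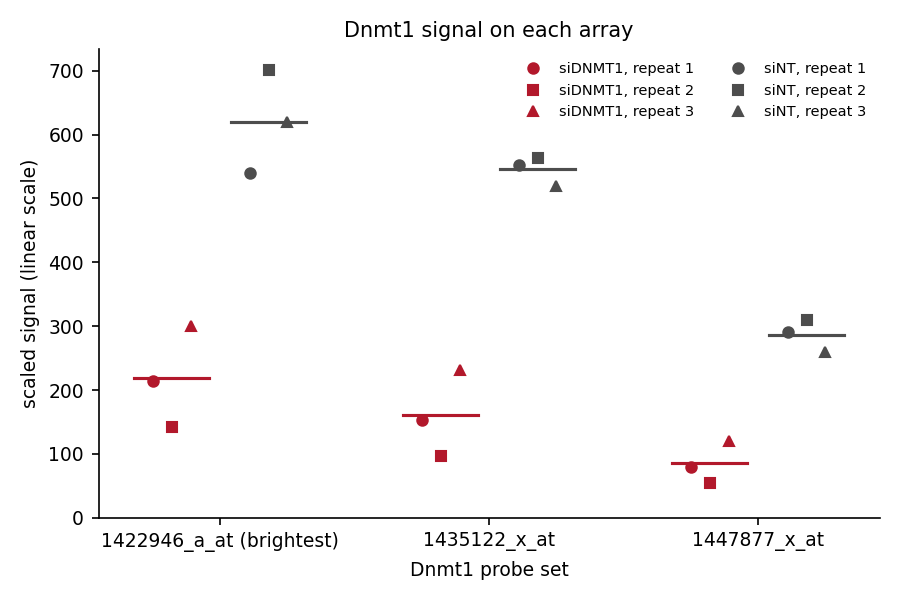
Scaled signal (linear scale) of the 3 Dnmt1 probe sets on each array, siDNMT1 in red and siNT in grey, with circles, squares and triangles for repeats 1, 2 and 3 and lines for group means. On every probe set the 3 siDNMT1 arrays lie under the 3 siNT arrays, with repeat 2 lowest and repeat 3 highest among the siDNMT1 arrays.

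The log2 difference of the brightest Dnmt1 probe set was -1.54, with an SE of 0.24 when the group alone was fitted. A paired fit, in which the repeat is a block, gave a 95% interval of -1.98 to -1.10, which corresponds to 25.4% to 46.8% of the siNT level. The width of this interval rests partly on variance borrowed from other probe sets. The differences of repeats 2 and 3, at -2.26 and -1.03, lie outside it. In the paired limma fit Dnmt1 passed the threshold on all 3 probe sets, with adjusted p = 0.0211 on the brightest, 0.0141 on 1435122_x_at and 0.0197 on 1447877_x_at. That fit called 15 probe sets lower and 8 higher, which is 0.0555% and 0.0296% of those tested, and 23 in either direction, 0.0851%. Without the block limma called 0 probe sets at an adjusted p under 0.05, 0% of those tested, and Dnmt1 had an adjusted p of 0.151 on each probe set (1025 probe sets, 3.79%, had an unadjusted p under 0.05). An ordinary linear model of the group alone, which borrows no variance, gave the brightest probe set an SE of 0.32 and an adjusted p of 0.9996. The exact permutation test of 3 arrays against 3 gave 0.1 on each probe set, the smallest two-sided p it allows. The paired calls ended on all 3 probe sets under other scalings, at differences of -1.47 on the brightest with 2% trimmed mean scaling and -1.46 with quantile normalization. Their limma adjusted p was then 0.0551 on the brightest, 0.0503 on 1435122_x_at and 0.0551 on 1447877_x_at with the trimmed mean, and 0.0532 on each with quantile normalization. Without the siDNMT1 array of repeat 3 the unpaired limma fit called it too, at a log2 difference of -1.79 and an adjusted p of 0.0432. Over all 22 alternatives the limma adjusted p ran from 9.85e-15, paired without repeat 3, to 1.00, and 5 of them made the call. These 5 include the paired fits without repeat 1, 2 or 3, which called 41, 41 and 266 probe sets. Such fits have few arrays left to estimate a variance and rely mostly on other probe sets, so their small p-values are weak evidence.

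No change was called in the other 8 genes. Of their 19 probe sets 13 were tested, 7 with differences above 0 and 6 below (40.8% and 59.2% of all tested probe sets), and 0 passed the threshold in either limma fit. An unadjusted p under 0.05 was reached by 0 of the 13 in either fit, against 3.79% (group alone) and 7.83% (paired) of all tested probe sets. Their lowest paired limma adjusted p was 0.681. The groups overlapped on all 13, whereas 8.74% of all tested probe sets had non-overlapping groups, 2.96% with siDNMT1 higher. The sign was the same in all 3 repeats for 4 of the 13, and for 29.3% of all tested probe sets. With 3 arrays a group these values do not show that the genes were unaltered. The intervals given for the tested genes are paired ones and state what size of change that fit leaves possible. Intervals of the group alone were wider, at 79.8% to 145% of the siNT level on Uhrf1 1415810_at and 63.2% to 167% on Dnmt3a 1423063_at. Some paired intervals not given below reached further, such as 81.5% to 198% on Dnmt3a 1423065_at and 73.2% to 219% on Hells 1453361_at.

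**Figure D2:**
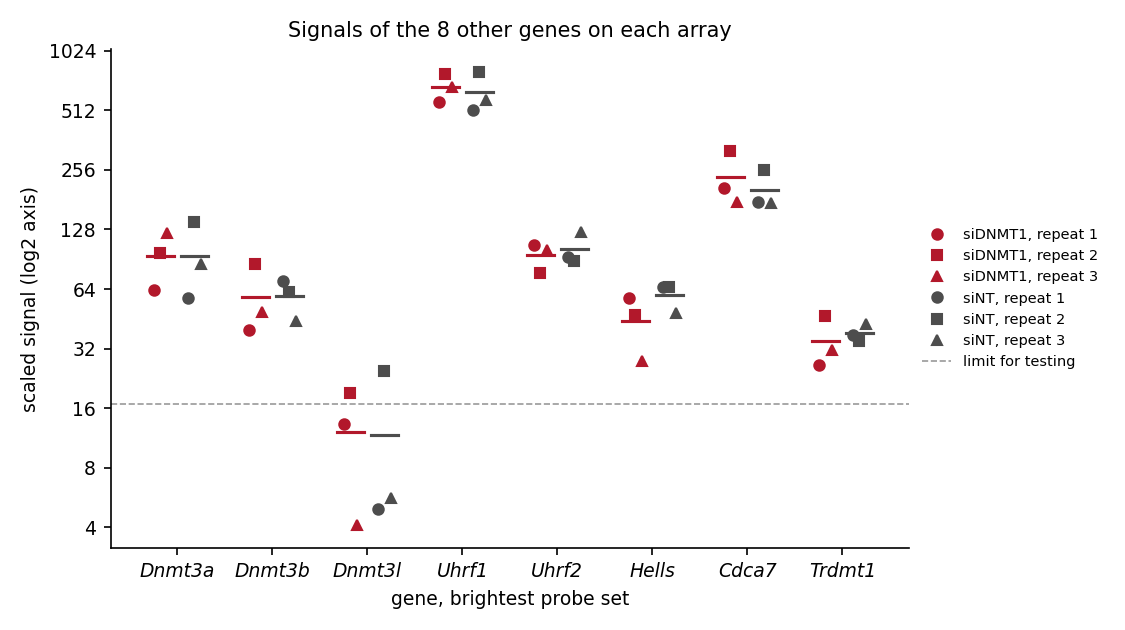
Scaled signal (log2 axis) of the brightest probe set of the 8 other genes on each array, siDNMT1 in red to the left of siNT in grey, with circles, squares and triangles for repeats 1, 2 and 3 and lines for group means. The groups overlap for every gene, and the Dnmt3l means lie under the dashed limit for testing, 16.8; heights of different genes are not comparable, since they come from different probes.

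Uhrf1, which finds hemimethylated CpG and recruits Dnmt1, overlapped between the groups on both of its probe sets. Its brightest probe set read 565, 783 and 672 in siDNMT1 repeats 1 to 3, against 514, 800 and 579 in siNT repeats 1 to 3, that is 673 ± 109 in siDNMT1 and 631 ± 150 in siNT cells (SD, n = 3). The log2 difference was 0.11 with both signs among the repeats (0.13, -0.03 and 0.21), and the paired 95% interval ran from -0.15 to 0.36, or 89.9% to 129% of the siNT level. This was the narrowest paired interval among the tested probe sets of the 8 genes. The second Uhrf1 probe set, 1415811_at, read 161, 165 and 132 in siDNMT1 cells against 118, 178 and 130 in siNT cells, a difference of 0.11 too. Repeat 1 had the largest difference on that probe set, at 0.43, while repeats 2 and 3 were at -0.11 and 0.02.

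Uhrf2, the paralog of Uhrf1, which does not replace it in maintenance, read 107, 77.3 and 101 in siDNMT1 cells and 92.5, 88.2 and 125 in siNT cells on its brighter probe set. Of the siDNMT1 values repeat 2 lies under the siNT range and the others within it, and the log2 difference was -0.09 (paired 95% interval -0.49 to 0.31). Its other probe set, 1447217_at, was under the limit for testing, at 1.24 to 9.49 in siDNMT1 cells and 1.14 to 16.5 in siNT cells.

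Hells, the SNF2-family remodeller needed for methylation of repeats, gave different signs on its 3 tested probe sets. The brightest, 1430139_at, read 57.6, 47.1 and 27.7 in siDNMT1 cells against 65.4, 65.1 and 48.2 in siNT cells. Its siDNMT1 value was under its paired siNT value in 3 of 3 repeats, by log2 differences of -0.17, -0.43 and -0.70, but the groups overlapped, since siDNMT1 repeat 1 lay above siNT repeat 3. The mean difference was -0.43 (paired 95% interval -0.92 to 0.05, limma adjusted p = 0.681), the lowest among the tested probe sets of the 8 genes. Without the siDNMT1 array of repeat 3 it was -0.16 in the unpaired fit. Probe set 1417541_at, at 53.1, 52.4 and 41.2 in siDNMT1 cells against 61.6, 63.2 and 30.9 in siNT cells, differed by -0.03, a value that turned to 0.03 with 2% trimmed mean scaling. The dimmest, 1453361_at, at 28.5, 30.3 and 14.9 in siDNMT1 cells against 24.8, 21.3 and 9.58 in siNT cells, differed by 0.34, above 0 in 3 of 3 repeats. The 3 probe sets thus give no common direction for Hells.

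Cdca7, the zinc finger protein that works with Hells on nucleosomes, had siDNMT1 values of 208, 320 and 175 against siNT values of 175, 257 and 174 on its brighter probe set. Every siDNMT1 array was above its partner, by log2 differences of 0.24, 0.31 and 0.01, yet the groups overlapped, with repeat 2 the highest in both. The mean difference was 0.19 (paired 95% interval -0.14 to 0.52, limma adjusted p = 0.795), and without the siDNMT1 array of repeat 2 it was -0.05 in the unpaired fit. The other Cdca7 probe set stayed under the limit for testing, with a log2 difference of 0.38.

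Dnmt3a, one of the enzymes that set new methylation, overlapped between the groups on every probe set. Its brightest probe set, 1423063_at, read 63.4, 97.0 and 122 in siDNMT1 cells and 57.5, 140 and 85.8 in siNT cells, so the siDNMT1 array was above its partner in repeats 1 and 3 and below it in repeat 2. The log2 difference was 0.04 (paired 95% interval -0.43 to 0.50, or 74.3% to 142% of the siNT level). Probe set 1460324_at read 23.4, 59.2 and 38.6 in siDNMT1 cells against 40.9, 73.9 and 34.4 in siNT cells, a difference of -0.28. Probe set 1423065_at read 41.7, 46.5 and 31.0 in siDNMT1 cells against 18.0, 50.6 and 27.8 in siNT cells, a mean difference of 0.34 with repeat 1 at 1.01. The tested Dnmt3a probe sets thus give no common direction, and the 2 remaining ones were under the limit for testing, at 2.95 to 25.6 over all arrays.

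Dnmt3b, the other de novo enzyme, also overlapped between the groups. Its brighter probe set, 1449052_a_at, read 39.7, 85.4 and 48.8 in siDNMT1 cells and 70.5, 62.1 and 44.1 in siNT cells, with repeat 1 lower and repeats 2 and 3 higher than their partners, and a log2 difference of -0.06 (paired 95% interval -0.61 to 0.48). Its other probe set, 1418351_a_at, read 46.9, 43.2 and 49.8 in siDNMT1 cells against 39.4, 38.9 and 49.5 in siNT cells. That is 46.7 ± 3.29 in siDNMT1 and 42.6 ± 5.94 in siNT cells (SD, n = 3), a difference of 0.12 (paired 95% interval -0.37 to 0.61) with the same sign in 3 of 3 repeats.

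Dnmt3l, the germ-cell cofactor of the de novo enzymes, had a single probe set with a mean under the limit for testing. It read 13.3, 19.1 and 4.10 in siDNMT1 cells and 4.95, 24.5 and 5.60 in siNT cells. Both groups were highest in repeat 2, and the siDNMT1 array was above its partner in repeat 1 only. No change of Dnmt3l can be read from signals this close to the pseudocount of 5.29.

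Trdmt1, the transfer RNA methyltransferase formerly called Dnmt2, read 26.6, 46.6 and 31.6 in siDNMT1 cells and 37.6, 35.1 and 42.8 in siNT cells on its brighter probe set. The siDNMT1 array was below its partner in repeats 1 and 3 and above it in repeat 2, with a log2 difference of -0.15 (paired 95% interval -0.74 to 0.44). Its other probe set, 1419750_at, stayed at 1.58 to 3.16 over all arrays, below the pseudocount.

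**Figure D3:**
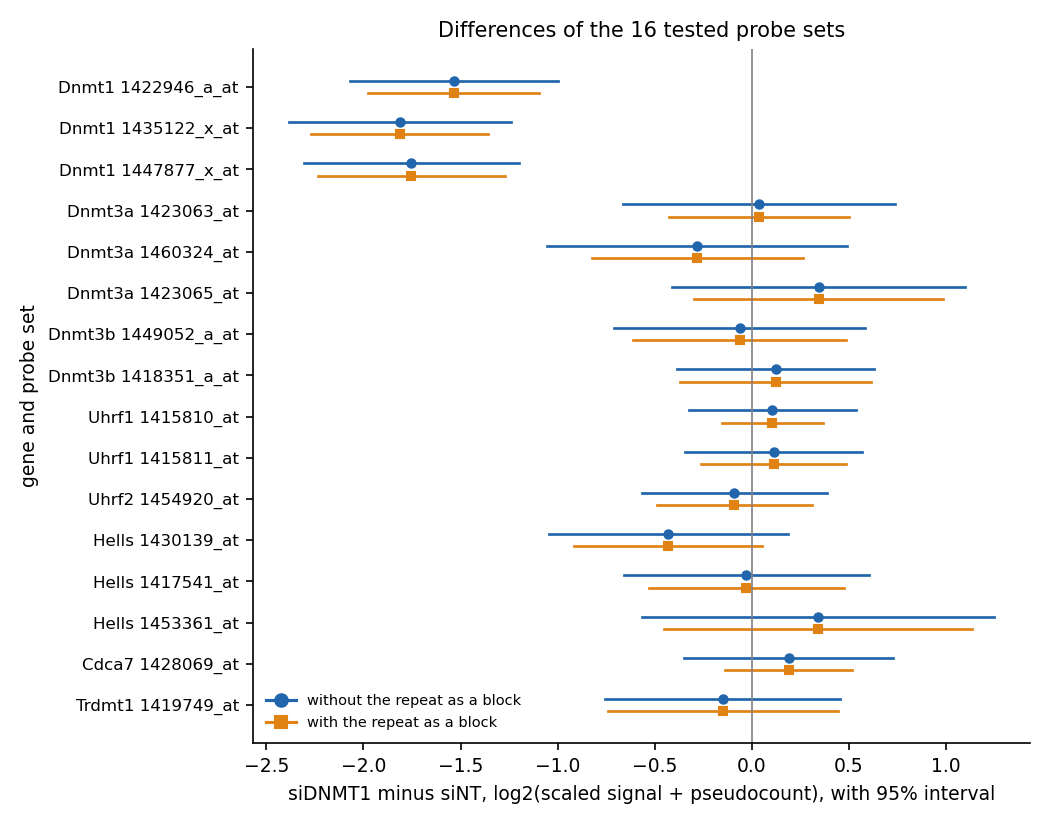
Log2 difference, siDNMT1 minus siNT, of the 16 tested probe sets, with 95% intervals from limma without the repeat as a block (blue circles) and with it (orange squares). The 3 Dnmt1 probe sets lie at -1.54 to -1.81 with intervals wholly under 0, while all 13 intervals of the other genes include 0 in both fits.

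Within an array, the ratio of Dnmt1 to each other gene had a lower mean in siDNMT1 than in siNT cells, a measure that needs no scaling between arrays apart from the small pseudocount. Relative to Uhrf1 the log2 value of Dnmt1 averaged -1.65 in siDNMT1 cells and -0.01 in siNT cells, a difference of -1.64. Over the 7 genes with a tested probe set the differences of these ratios ran from -1.10 for Hells to -1.72 for Cdca7. The ratio did not overlap between groups for 6 of the 7, which gives the exact permutation test its smallest p of 0.1 (0.117 after Benjamini-Hochberg adjustment over the 7). All 7 ratios share the same Dnmt1 values, whose groups did not overlap. They therefore restate the fall of Dnmt1 and are not separate support for it. For Hells it overlapped (exact permutation p = 0.2). This test does not use the pairs. Within repeats the difference was below 0 in 3 of 3 for each of the 7 genes, and for Hells it was -1.15, -1.84 and -0.33 in repeats 1, 2 and 3.

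The pathway around these genes was followed through 5 lists. Of the partners that Dnmt1 meets at replicating DNA 14 of 18 were tested, 5 with values above 0 and 9 below, and their median difference was -0.03, beside -0.06 over all tested probe sets. Pcna, the sliding clamp that Dnmt1 binds, read 3847, 3496 and 4283 in siDNMT1 and 4093, 3727 and 4591 in siNT cells. Its log2 difference was -0.09 in each of repeats 1 and 2 and -0.10 in repeat 3, and the mean of -0.09 turned to 0.02 with quantile normalization. The deacetylase genes Sirt1 and Hdac2 differed by 0.40 (SE 0.40) and -0.18 (SE 0.25). SEs given for list genes, here and below, are those of the fit of the group alone.

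Genes for chromatin marks that stand beside the Dnmt3 enzymes, all 10 tested, had 2 values above 0 and 8 below with a median of -0.05. All tested probe sets had 59.2% below 0, and the median of this list ran from -0.21 to 0.09 with 1 array left out. The histone H3 lysine methyltransferase genes Nsd3 and Nsd1 differed by -0.34 (SE 0.28) and -0.29 (SE 0.31), and the histone chaperone gene Daxx by 0.16 (SE 0.20). Of the methyl donor cycle, which makes the S-adenosylmethionine these enzymes use, 12 of 19 genes were tested, 4 with values above 0 and 8 below, with a median of -0.04. Mat2b, the regulatory subunit of S-adenosylmethionine synthesis, read 216, 323 and 207 in siDNMT1 cells against 130, 194 and 178 in siNT cells, above in 3 of 3 repeats and without overlap. Among all tested probe sets 2.96% had non-overlapping groups with siDNMT1 higher. Its difference was 0.55 (SE 0.22), and it did not pass the threshold (limma adjusted p = 1.00 with the group alone and 0.397 when paired). The S-adenosylhomocysteine hydrolase-like gene Ahcyl1 differed by -0.28 (SE 0.20) and Mtrr, which reactivates methionine synthase, by -0.25 (SE 0.21).

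Other RNA methyltransferase genes, set beside Trdmt1, had 1 value above 0 and 8 below among 9 tested, with a median of -0.21. Of all tested probe sets 59.2% were below 0. With 1 array left out the median of this list ran from -0.26 to -0.0025, so its size depends on single arrays. The largest of the 3 named was Nsun5, of ribosomal RNA, at -0.32 (SE 0.22), followed by Nsun2 and Trmt61a, of transfer RNA, at -0.23 (SE 0.25) and -0.22 (SE 0.22). Replication genes of S phase, the phase in which maintenance methylation takes place, had 36 of 37 tested, 11 above 0 and 25 below, with a median of -0.06 that equals the median of all tested probe sets at 2 decimals. Ccne2, a cyclin of S phase entry, differed by -0.47 (SE 0.29), the replication fork helicase gene Cdc45 by -0.23 (SE 0.16) and the polymerase gene Pole by 0.69 (SE 0.52). Single arrays moved some of these list values by more than 1.5 times. Ccne2 was -0.20 without the siDNMT1 array of repeat 2, the repeat in which it differed by -1.12, against -0.20 and -0.10 in repeats 1 and 3. Pole was 0.34 without the siDNMT1 array of repeat 2 and 1.31 without that of repeat 3. The call counts were 0 higher and 0 lower in each of the 5 lists and in both limma fits. Groups did not overlap for 1 of 14 Dnmt1 partners, 2 of 12 methyl donor genes and 2 of 36 replication genes, Cdc45 among them. In the other lists the count was 0, and among all tested probe sets the share was 8.74%. Of the 80 different list genes tested, 1 had an unadjusted p under 0.05 without the block, Mat2b, which is 1.25% beside 3.79% of all tested probe sets. In the paired fit 4 did, Mat2b, Ahcyl1, Ccne2 and Mcm3, a share of 5% beside 7.83%. Paired SEs were smaller than those given above, at 0.11 for Ahcyl1 and 0.21 for Ccne2. Mcm3, a subunit of the replicative helicase, was named after its values were seen, and differed by -0.28 (limma adjusted p = 0.579, paired).

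The profile of Dnmt1 over the 6 arrays was set against all tested probe sets with 1 symbol, and the 5 genes with the highest Pearson correlation on the log2 scale are given as a description. Since they were chosen for this likeness, their differences are given with no test. Foxk2, a forkhead factor, correlated at 0.994, with signals of 223, 160 and 275 in siDNMT1 cells against 547, 648 and 539 in siNT cells. Its log2 differences by repeat, -1.28, -1.98 and -0.96, had the order of those of Dnmt1, -1.32, -2.26 and -1.03. Of the 4 other Foxk2 probe sets, differences of -1.17 and -1.13 stood beside 0.17 and -0.09. Ramp3, a receptor activity-modifying protein, correlated at 0.992 at dim signals of 12.2, 7.21 and 17.5 in siDNMT1 cells against 25.6, 38.8 and 30.9 in siNT cells. The microtubule-associated autophagy protein gene Map1lc3a, the vesicle GTPase gene Rab3a and BC052688 each correlated at 0.993, with smaller differences of -0.37, -0.49 and -0.24. These are the probe sets most like Dnmt1, not always the brightest. A brighter Map1lc3a probe set differed by -0.15, was higher in siDNMT1 cells in 2 of 3 repeats and overlapped between the groups, and the other Rab3a probe set differed by -0.73. The other BC052688 probe set was too dim to test. Among the other methylation genes the correlation with Dnmt1 ran from -0.56 on the dimmest Hells probe set to 0.66 on the dim Trdmt1 probe set 1419750_at, over the same 6 arrays, whose pairs share a repeat.

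**Figure D4:**
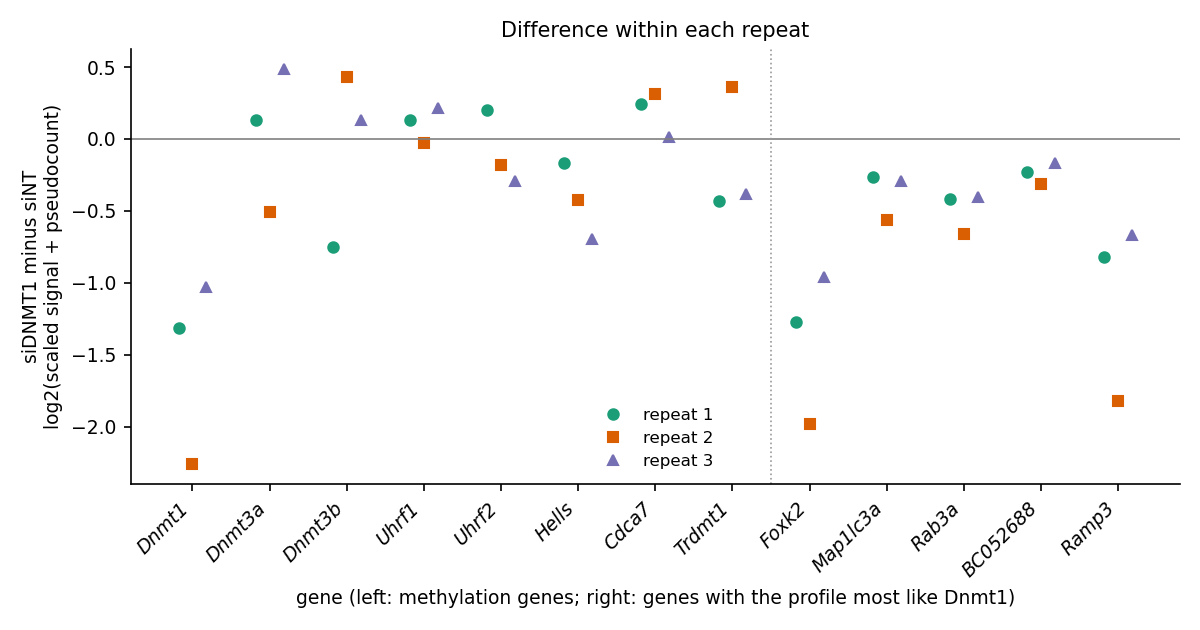
Log2 difference, siDNMT1 minus siNT, within each repeat (circle, square and triangle for repeats 1, 2 and 3) for the brightest probe set of the 8 tested methylation genes, left of the dotted line, and for the 5 genes with the profile most like Dnmt1, right of it. Dnmt1 lies at -1.32, -2.26 and -1.03, lowest in repeat 2, and Hells is the only other methylation gene shown with all 3 repeats under 0.

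Read by repeat, the depth of the knockdown and the values of the other genes can be set side by side. In repeat 1 Dnmt1 differed by -1.32, between its values in repeats 2 and 3. Uhrf1 was then at 0.13, Uhrf2 at 0.20, Hells at -0.17 and Cdca7 at 0.24. Dnmt3a was at 0.13, Dnmt3b at -0.75 and Trdmt1 at -0.43 in that repeat. In repeat 2, where Dnmt1 differed by -2.26, Uhrf1 was at -0.03, Uhrf2 at -0.18, Hells at -0.43, Cdca7 at 0.31, Dnmt3a at -0.51, Dnmt3b at 0.43 and Trdmt1 at 0.36. In repeat 3, where Dnmt1 differed by -1.03, Uhrf1 was at 0.21, Uhrf2 at -0.29, Hells at -0.70, Cdca7 at 0.01, Dnmt3a at 0.49, Dnmt3b at 0.13 and Trdmt1 at -0.38. These are the brightest probe sets, and others of the same gene had another order. Dnmt3a 1460324_at was lowest in repeat 1, at -0.69, and Hells 1417541_at was lowest in repeat 2, at -0.25, and highest in repeat 3, at 0.36. With 3 repeats no relation to the depth of the knockdown was tested.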

How the data were processed

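Transcript signals of AtT-20 cells were read from 3 siDNMT1 and 3 siNT arrays, grouped by the labels alone. The deposited intensities are linear, with 1 value for every probe set of an array, and were made by the authors with GCOS, the Affymetrix operating software, per the submitters' processing notes. Nothing on its settings, scaling or detection calls was found in those notes. The table lists 45101 probe sets, 64 of them controls. Gene symbols came from the platform annotation, and only probe sets with 1 symbol were named.

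Array medians and 2% trimmed means differed by more than 10%, so each array was scaled to a common median log2 value. Differences are on the log2(scaled signal + pseudocount) scale with a pseudocount of 5.29, the 20th percentile of all deposited values. This understates changes of dim probe sets. The 27022 probe sets whose scaled signal averaged at least 16.8, the 40th percentile, were tested by linear models moderated with a variance trend (limma 3.58.1 under R 4.3.3, two-sided) and the Benjamini-Hochberg adjustment over all of them, a threshold of 0.05 and 95% intervals. The fits were also run on data simulated with normal errors, where only the recovery of mean changes was checked, not the calls or intervals. In the lists, markers and ratios a gene with several probe sets is represented by the brightest, by mean over all arrays. The genes most like Dnmt1 are given on the probe set with the highest correlation.

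The first fit held the group alone, and the paired fit added the repeat number as a block. After subtraction of the group means, arrays that share a number correlated at 0.173, 0.231 and 0.257, and arrays of different numbers at most at -0.0283. The subtraction makes the values of a group sum to 0, so positive correlations for shared numbers push the others below 0. The contrast is therefore partly built in. The positive values for shared numbers are the ground for taking the numbers, which come from the labels, as pairs. The members and gene lists were chosen with earlier results of these data known. Named genes were the 9 members, up to 3 tested genes of each list with the smallest unadjusted p (0 passed the threshold), the corticotroph markers and the 5 genes most correlated with Dnmt1. Alternatives covered scaling, pseudocount, filter, variance model, pairing and each left-out array or repeat. Promoter stretches are RefSeq sequences of GRCm38.p6, used for their letters only.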

Additional observations from a re-analysis of the deposited data

How the results depend on the processing

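The Dnmt1 difference was below 0 under all 22 alternatives. It was -1.54 with the replicate block, and leaving out 1 array at a time gave -1.79 to -1.26. In the paired fit it was -1.65 without repeat 1, -1.17 without repeat 2 and -1.79 without repeat 3. The count of probe sets called was 23 with the replicate block, 3 with the block and 2% trimmed mean scaling, 4 with the block and quantile normalization, 1 with 2% trimmed mean scaling, 1 with quantile normalization, 2 without scaling, 1 with the filter at the 60th percentile and 1 without probe sets ending in _s_at or _x_at. It was 0 to 4 with 1 array left out, and in the paired fit 41 without repeat 1, 41 without repeat 2 and 266 without repeat 3. The cause was not tested. The 8 other genes and the 5 lists had 0 calls under all 22 alternatives. Among the members and the named list genes, the block changed the call of Dnmt1 alone.

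Signs of small differences were not stable. With 1 array left out, Dnmt3a ran from -0.25 to 0.35 on 1423063_at and from -0.57 to 0.016 on 1460324_at, Dnmt3b 1449052_a_at from -0.36 to 0.15, Uhrf1 from -0.029 to 0.29 on 1415810_at and from -0.0053 to 0.28 on 1415811_at, Uhrf2 1454920_at from -0.18 to 0.058, Hells 1417541_at from -0.33 to 0.13, Cdca7 1428069_at from -0.053 to 0.37 and Trdmt1 1419749_at from -0.35 to 0.0037. Likewise Daxx ran from -0.017 to 0.28, Sirt1 from -0.044 to 0.67 and Hdac2 from -0.43 to 0.064. Without a change of sign, Hells 1430139_at ran from -0.63 to -0.16, Ccne2 from -0.77 to -0.20, Nsd3 from -0.52 to -0.075 and Pole from 0.34 to 1.31. In the paired fit, leaving out repeat 1 gave -0.010 for Dnmt3a 1423063_at, 0.28 for Dnmt3b 1449052_a_at, -0.045 for Uhrf1 1415811_at and 0.056 for Hells 1417541_at, leaving out repeat 2 gave 0.083 for Hells 1417541_at, and leaving out repeat 3 gave -0.19 for Dnmt3a 1423063_at, 0.011 for Uhrf2 1454920_at and 0.18 for Hdac2. With and without the block, Hells 1417541_at was 0.028 with 2% trimmed mean scaling and Pcna 0.021 with quantile normalization. The number of arrays limits the precision, and without detection calls a dim probe set cannot be told from background here.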
